A study of Mus musculus with 12 samples.

Results

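The genes described here encode proteins that give epithelial cells an apical and a basal side and that build the tight junctions between them. They are 9 of the 18193 genes with a named probe set: the polarity genes Crb3, Pard3 and Pard6b, the junction membrane genes Marveld2 and F11r, the adhesion gene Epcam, and the junction scaffold genes Tjp1, Tjp3 and Cgn. Members were taken by symbol, as every probe set whose only platform gene symbol was one of these, which gave 18 probe sets. The samples are 12 Affymetrix arrays of TBV2, a wild-type embryonic stem cell line of mouse strain 129/SvP, a single line without genetic modification in the labels. All cultures were in medium with leukemia inhibitory factor (LIF), which holds these cells pluripotent, and without non-essential amino acids, on gelatin without feeder cells for 5 days. Control cultures (ESCs) received no addition, and treated cultures (PiCs) received 500 µM L-proline. Each group has biological replicates 1 and 2, with 3 arrays each, which were averaged to 4 replicate means. Whether the biological replicates were separate cultures is not given in the labels used here, so p-values measure only the spread between these means, which may be partly technical.

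In polarized epithelium, the Crumbs complex (Crb3 with its scaffolds) and the PAR complex (Pard3 and Pard6b with atypical protein kinase C) mark the apical membrane and position the tight junction below it. Membrane proteins such as tricellulin (Marveld2) and JAM-A (F11r) span the junction, and the ZO scaffolds (Tjp1, Tjp3) and cingulin (Cgn) tie it to the actin cytoskeleton. Epcam is an adhesion protein of epithelial and pluripotent cells. In the mouse embryo, the epiblast becomes a polarized epithelium around implantation.

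The comparison of proline with control asks how far these transcripts differed when the amino acid was added under LIF. Crb3, Marveld2, Epcam and Tjp3 rose after proline, by 3.03-fold, 6.18-fold, 2.37-fold and 1.82-fold. Pard3, Pard6b, F11r, Tjp1 and Cgn did not pass the test, with measured log2 fold changes between 0.39 and 1.01. That is 4 of 9 genes past an adjusted p of 0.05 in limma, against 4.36% of all genes in either direction and 3.03% higher after proline. In all 9 genes both proline replicate means lay above both control means, a pattern that 24.0% of all genes had. In 6 of the 9 the 6 proline arrays all lay above the 6 control arrays, against 13.8% of all genes. The median log2 fold change was 0.87 over the 9 genes and -0.03 over all genes.

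The sequences below are shown because they stand upstream of 3 of the 4 genes that rose and hold the E-box CACCTG, the letters read by Zeb and Snail repressors of epithelial genes. They are RefSeq promoter sequences of build GRCm38.p6, 250 bases ending just before the start of transcription, 5′ to 3′ on the strand of the gene. Capitals mark each CACCTG or, where the motif lies on the other strand, CAGGTG. Crb3 lies on the plus strand (chr17:57061951-57062200), Epcam on the plus strand (chr17:87635729-87635978) and Tjp3 on the minus strand (chr10:81291582-81291831).
Crb3: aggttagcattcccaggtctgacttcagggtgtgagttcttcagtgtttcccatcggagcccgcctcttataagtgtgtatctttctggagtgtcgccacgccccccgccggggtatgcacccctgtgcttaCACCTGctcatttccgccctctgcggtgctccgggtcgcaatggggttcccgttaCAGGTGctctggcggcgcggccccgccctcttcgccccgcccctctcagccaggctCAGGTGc
Epcam: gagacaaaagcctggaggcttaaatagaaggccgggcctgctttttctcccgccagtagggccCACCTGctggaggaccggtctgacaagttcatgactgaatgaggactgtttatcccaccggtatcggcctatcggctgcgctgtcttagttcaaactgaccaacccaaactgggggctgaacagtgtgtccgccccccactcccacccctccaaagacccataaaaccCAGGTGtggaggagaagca
Tjp3: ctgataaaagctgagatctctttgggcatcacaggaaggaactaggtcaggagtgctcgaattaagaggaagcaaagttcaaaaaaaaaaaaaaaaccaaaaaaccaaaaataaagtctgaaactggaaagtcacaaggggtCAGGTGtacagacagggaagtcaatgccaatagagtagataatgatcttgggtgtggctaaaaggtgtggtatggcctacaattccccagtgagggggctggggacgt
The first bases of the 3 matches of Crb3 lie 118, 63 and 7 bases before the start. Those of Epcam lie 187 and 19 bases before it, and that of Tjp3 lies 108 bases before it.

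Over the full window of 300 bases, from 250 before to 50 after the start, Crb3 held 4 matches, since another lies 25 bases after the start. Of 27025 genes with such a window, 0.0481% held 4 or more in the first window listed for them, 2.85% held 2 or more and 20.0% at least 1. Epcam and Pard6b held 2 matches each. Tjp3, F11r and Marveld2 held 1 each, that of Marveld2 43 bases after the start. The first windows of Pard3, Tjp1 and Cgn held none, while the other window of Pard3 held 3. In their first windows, the 4 genes that rose thus all had a match, and so did 2 of the 5 that did not pass. With its other window counted, Pard3, which did not pass, had matches too. Whether matches go with the rise was not tested. The letters AACCGGTT, a site of Grainyhead-like factors that reads the same on both strands, occurred in 0 of the windows of the 9 genes and in 0.152% of genes. These matches are letters in a window, and binding was not measured.

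**Figure D1:**
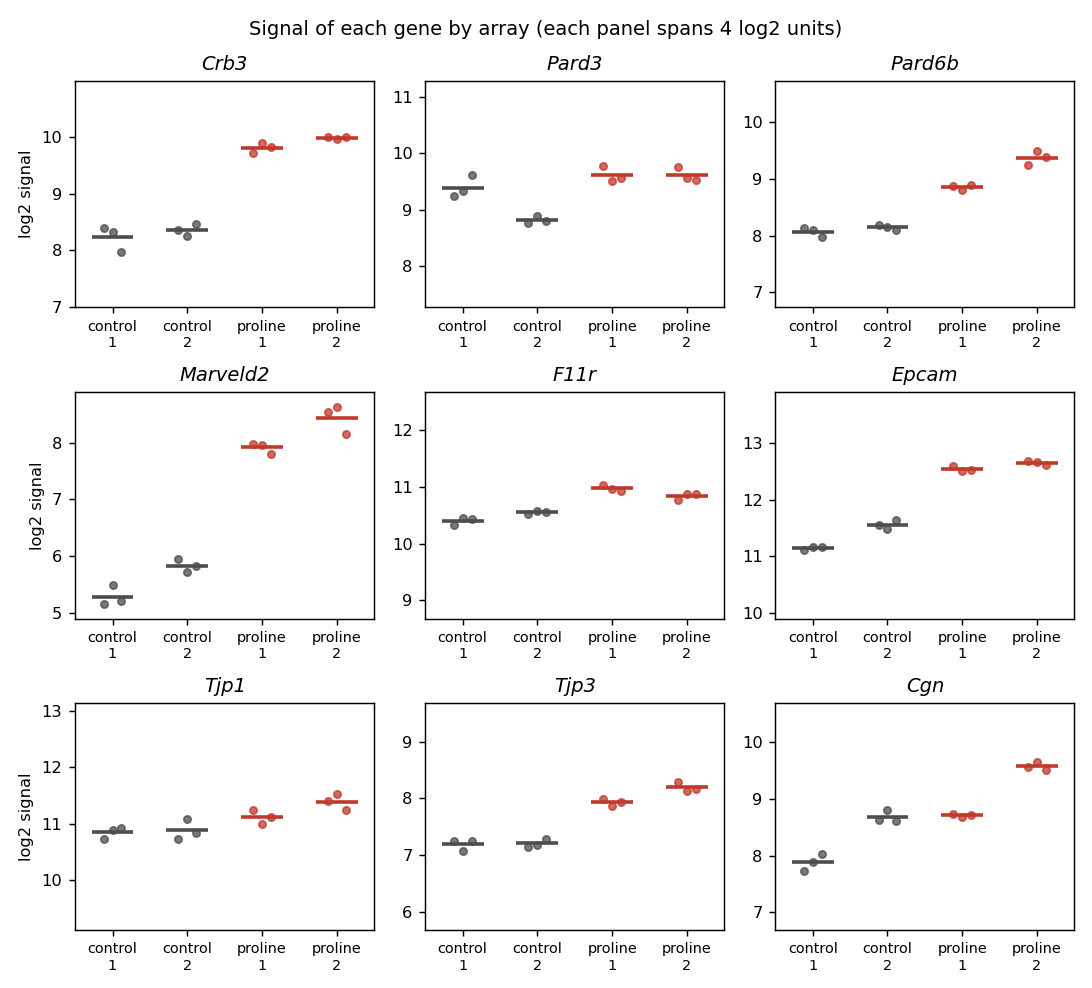
Log2 signal (y axis) of the probe set that represents each gene, by biological replicate (x axis), with points for single arrays, lines for the mean of 3 arrays, grey for control and red for proline. Marveld2 goes from 5.55 to 8.18 on average, and Cgn has control replicate 2 (8.68) beside proline replicate 1 (8.71).

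Among the polarity genes, Crb3, the small transmembrane Crumbs protein of most epithelia, had log2 signals of 8.23 and 8.36 in control replicates 1 and 2 and 9.80 and 9.99 in proline replicates 1 and 2. The arrays did not overlap, with the highest control array at 8.47 and the lowest proline array at 9.71. Crb3 rose by a log2 fold change of 1.60 ± 0.13 (limma's moderated SE, n = 2 biological replicates per group, adjusted p = 0.0246). The SDs of the control and the proline replicates were 0.09 and 0.13.

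Pard6b, the PAR6 adaptor that binds Cdc42 and atypical protein kinase C, had log2 signals of 8.06 and 8.15 in the control replicates and 8.86 and 9.37 in the proline replicates. All 6 proline arrays lay above the control arrays, and proline replicate 2 was the highest. Its log2 fold change of 1.01 ± 0.20 did not pass (limma adjusted p = 0.0737), and its 95% interval ran from 0.48 to 1.55. Pard3, the PAR3 scaffold that recruits the complex to junctions, had 9.39 and 8.82 in the control replicates and 9.62 in each proline replicate. Control replicate 1 was thus nearer to the proline replicates than to control replicate 2, and single arrays overlapped. Its log2 fold change was 0.51 ± 0.22 (limma adjusted p = 0.273), with a 95% interval from -0.06 to 1.09.

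Of the junction membrane genes, Marveld2, which encodes tricellulin of the corners where 3 cells meet, had log2 signals of 5.29 and 5.82 in the control replicates. The proline replicates had 7.92 and 8.44, and the lowest proline array (7.81) lay well above the highest control array (5.95). Marveld2 rose by 2.63 ± 0.27 on the log2 scale (limma adjusted p = 0.0289), the largest log2 fold change among the 9 and the 57th largest increase of all 18193 genes. Control replicate 1 was dimmer than the 40th percentile of probe sets (5.36), where signal and background are not told apart by these values, so the fold of 6.18 is not exact.

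F11r, the junctional adhesion molecule JAM-A that binds Pard3, had 10.41 and 10.55 in the control replicates and 10.98 and 10.85 in the proline replicates. The arrays did not overlap, but the step from the highest control array (10.57) to the lowest proline array (10.77) was small. Its log2 fold change of 0.43 ± 0.13 did not pass (limma adjusted p = 0.146, 95% interval 0.10 to 0.77).

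Epcam had log2 signals of 11.15 and 11.56 in the control replicates and 12.54 and 12.66 in the proline replicates. The control replicates differed by 0.41 and the proline replicates by 0.11, and no arrays overlapped. Epcam rose by 1.25 ± 0.18 (limma adjusted p = 0.0413). With the median over its probe sets in place of the brighter one, its log2 fold change was 0.73 (adjusted p = 0.0955 in limma), within a range of 4.86e-06 to 0.143 over the 12 alternatives.

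Of the scaffold genes, Tjp3, which encodes ZO-3, had 7.19 and 7.21 in the control replicates and 7.94 and 8.19 in the proline replicates. Its control replicates were almost equal, and its arrays did not overlap. Tjp3 rose by 0.87 ± 0.14 (limma adjusted p = 0.0491). The call sat at the threshold: adjusted p was 0.0501 when arrays were centred on their medians and 0.0604 with an intensity trend, within 0.000108 to 0.196 over the 12 alternatives.

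Tjp1, which encodes ZO-1, the scaffold shared by tight junctions and early cell contacts, had 10.85 and 10.88 in the control replicates and 11.12 and 11.39 in the proline replicates. Single arrays overlapped, with the highest control array at 11.09, above the lowest of the proline arrays. Its log2 fold change was 0.39 ± 0.14 (limma adjusted p = 0.213, 95% interval 0.01 to 0.76). Cgn, which encodes cingulin, a scaffold of the cytoplasmic face of the junction, had 7.88 and 8.68 in the control replicates and 8.71 and 9.58 in the proline replicates. Control replicate 2 and proline replicate 1 were almost equal, and their arrays overlapped. Its log2 fold change of 0.87 equalled that of Tjp3, but with a standard error of 0.40 it did not pass (limma adjusted p = 0.313, 95% interval -0.20 to 1.93). Tjp1, Tjp3 and Cgn thus had measured increases, of which 1 passed.

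**Figure D2:**
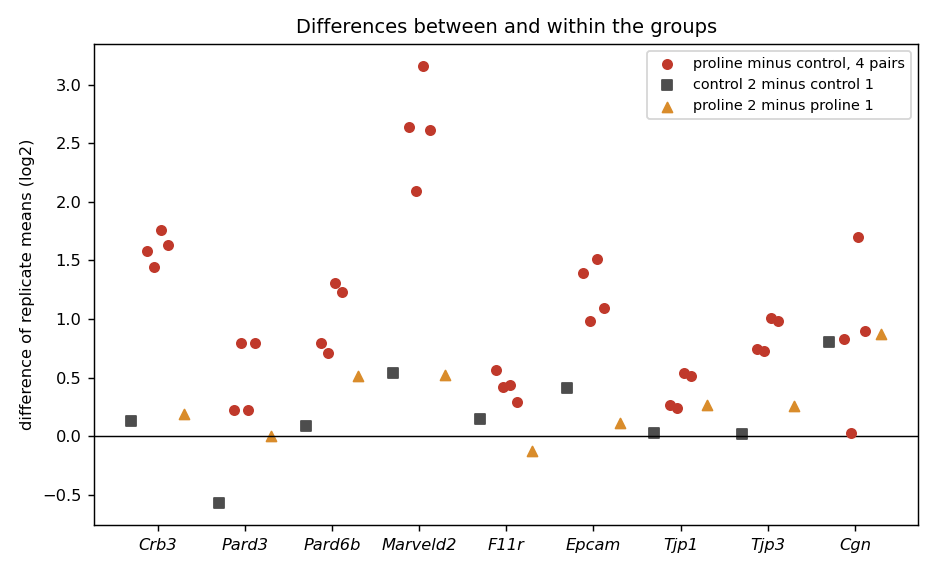
Differences of replicate means in log2 units (y axis) for each gene (x axis): red circles are the 4 proline minus control pairs, grey squares control 2 minus control 1 and orange triangles proline 2 minus proline 1. For Crb3 the pairs lie between 1.44 and 1.76, far from the differences within groups, while for Cgn they run from 0.03 to 1.70 around within-group differences of 0.80 and 0.87.

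The 9 genes also differed between biological replicates of one group. Replicate 2 was higher than replicate 1 for 8 of 9 in the control group, with a median difference of 0.13 on the log2 scale, and for 7 of 9 in the proline group, with a median of 0.26. Over all genes these medians were -0.02 and -0.03. The largest such differences were those of Cgn (0.80 in controls, 0.87 after proline), Marveld2 (0.54 and 0.52) and Pard3 (-0.57 in controls). The median over the 9 genes of proline minus control ran from 0.73 to 1.31 over the 4 pairs of replicates, lowest for proline replicate 1 against control replicate 2. RNA quality, read as beta-actin 5' minus 3' (log2), was higher by 0.40 in control replicate 2 than 1, by 0.42 in proline replicate 2 than 1, and by 0.25 in proline than in control. The same measure on Gapdh differed by 0.29, 0.26 and 0.06, so the groups were closer by it. The signal of 18S ribosomal RNA differed by -0.70, -1.39 and -1.345 (log2), and that of the poly-A spike-ins by -0.35, -0.46 and -0.39. The part of these in the differences of the 9 genes was not tested. Leaving out any 1 of the 4 replicates left 0 of the 9 genes past the threshold in limma, as it left 0 of all genes, while 6 or 7 of the 9 had an unadjusted p under 0.05. Since both proline means lay above both control means in all 9 genes, no log2 fold change could fall below 0 here. In size they measured 1.51 to 1.69 for Crb3 and 2.36 to 2.90 for Marveld2. Among the genes that did not pass, 3 moved by more than 1.5 times. Cgn measured 0.43 without proline replicate 2 and 1.30 without proline replicate 1, and Tjp1 measured 0.25 and 0.52 in the same settings. Pard3 measured 0.23 without control replicate 2 and 0.80 without control replicate 1.

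**Figure D3:**
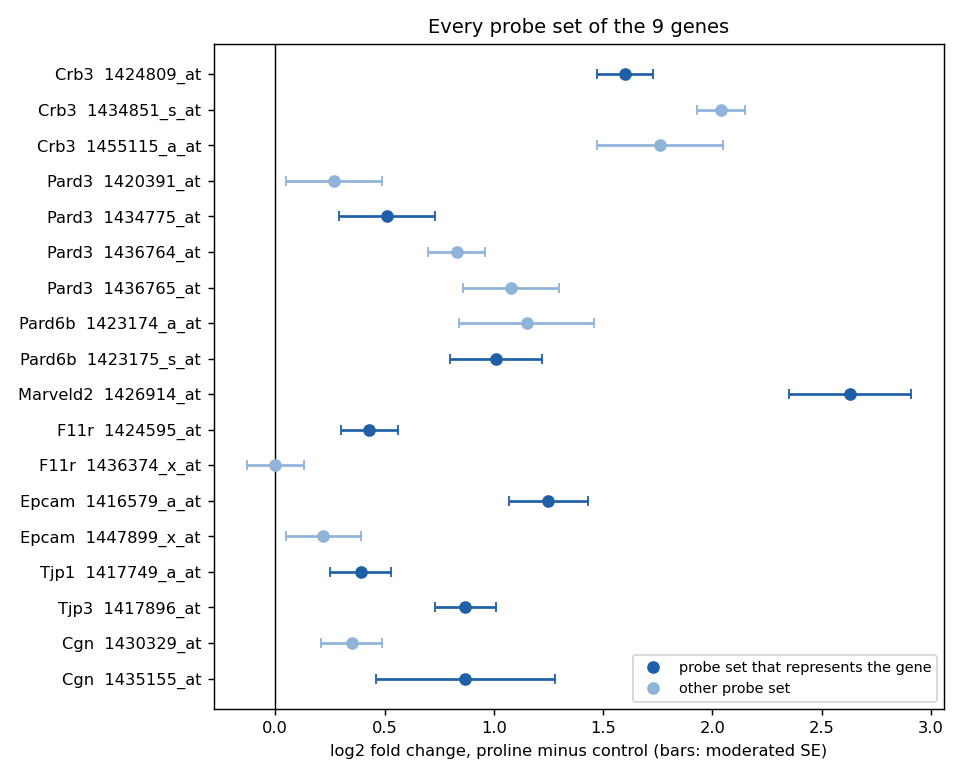
Log2 fold change of proline minus control (x axis, bars are moderated standard errors) for the 18 probe sets (y axis), dark where the probe set represents its gene and light otherwise. The 3 probe sets of Crb3 lie between 1.60 and 2.04, and the probe sets of F11r and Epcam with the suffix _x_at lie at 0.00 and 0.22.

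Tested one by one, 1 of the 18 probe sets passed over all 45101 in limma, of which 0.0998% passed. It was 1434851_s_at of Crb3, with 7.15 and 7.05 in the control replicates and 9.11 and 9.17 in the proline replicates (log2 fold change 2.04 ± 0.11, adjusted p = 0.0494). At an unadjusted p under 0.05 there were 12 of the 18, against 17.6% of all probe sets. Both proline means lay above both control means for 15 of the 18, against 20.2% of all probe sets.

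Probe sets of the same gene gave alike sizes for some genes and unlike sizes for others. Crb3 measured 1.60, 2.04 and 1.76, all in one direction. Pard3 measured 0.51 with the brightest probe set, used above, and 0.27, 0.83 and 1.08 with the others. The probe set of Pard3 at 0.83 ± 0.13 had 8.14 and 7.94 in the control replicates and 8.84 and 8.90 in the proline replicates (limma adjusted p = 0.0786 over all probe sets), so its arrays did not overlap while those of the brightest did. The dimmer probe set of Epcam had 7.71 and 7.96 in the control replicates and 8.20 and 7.90 in the proline replicates, which overlap, a log2 fold change of 0.22 ± 0.17. That of F11r was flat, with 5.88 and 5.73 in the control replicates and 5.88 and 5.74 in the proline replicates. Both carry the suffix _x_at, by which the maker marks probe sets with probes that can also match other transcripts. The suffix _s_at likewise marks probes shared by several transcripts. It is carried by 1434851_s_at of Crb3, which passed, and by 1423175_s_at, which represents Pard6b. Whether other transcripts add to any of these signals was not tested. The 2 probe sets of Pard6b measured 1.15 ± 0.31 and 1.01 ± 0.21, and those of Cgn 0.87 ± 0.41 and 0.35 ± 0.14. Marveld2, Tjp1 and Tjp3 had 1 probe set each.

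Other genes of the same structures were read from 6 lists of polarity and junction genes, of which 39 of 43 entries were measured. Past the threshold in limma, 5 were higher and 1 was lower after proline, or 15.4% against 4.36% of all genes, and the other 33 did not pass. The median log2 fold change of the 39 was 0.14. Another 2 lists, of transcription and splicing factors that regulate epithelial genes, had 15 genes, of which 1 was higher and 1 lower. Of the other Crumbs genes, 6 were measured and 0 passed in limma, while 2 had an unadjusted p under 0.05. Over all genes 22.1% had an unadjusted p under 0.05 in limma, so a few such genes in a list are not a result by themselves. Patj, the scaffold that links the Crumbs complex to the tight junction, went from 5.79 and 6.88 to 8.54 and 9.21 without passing (2.54 ± 0.44, adjusted p = 0.0553). Mpp5, the Crumbs partner also called Pals1, measured 0.53 ± 0.15. The relative of Patj among the tight junction scaffolds, Mpdz, rose from 6.72 and 7.14 to 8.81 and 9.06 (2.0 ± 0.19, limma adjusted p = 0.0274), and it was the only one of 8 scaffolds measured to pass. Its 3 other probe sets measured 0.09, 0.73 and 1.15, and those of Patj 1.21, 1.80 and 3.02. Arhgef2, whose product is held at the junction by cingulin, measured 0.70 ± 0.22 (adjusted p = 0.165).

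Of the PAR complex and its partners, 0 of 8 passed in limma. An unadjusted p under 0.05 was found for 2 of the 8, a share near the 22.1% of all genes. The PAR6 gene Pard6g measured 0.81 ± 0.20 (adjusted p = 0.107), and the kinase gene Prkci, whose product binds PAR6, measured -0.40 ± 0.14 (adjusted p = 0.195). In the Scribble complex of the basolateral side, Dlg3 rose from 7.71 and 7.58 to 8.50 and 8.41 (0.81 ± 0.12, limma adjusted p = 0.0441) and 4 of 5 did not pass, among them Llgl1 (0.31 ± 0.12).

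Among 7 other membrane proteins of the tight junction, 2 rose, 1 fell and 4 did not pass, and 1.34% of all genes were past the threshold on the lower side. Occludin (Ocln), a relative of Marveld2 with the same MARVEL fold, rose from 6.68 and 6.66 to 8.48 and 8.57 (1.86 ± 0.11, limma adjusted p = 0.0246). The third of this family, Marveld3, had 5.63 and 6.37 in controls and 8.21 and 7.69 after proline and did not pass (1.95 ± 0.32, adjusted p = 0.0505), and its other probe sets measured 0.05 and 1.12. The relatives of F11r went opposite ways. Jam2 fell from 10.83 and 10.44 to 7.98 and 8.74 (-2.27 ± 0.30, limma adjusted p = 0.0383), and Jam3 rose from 7.29 and 7.39 to 8.09 and 8.07 (0.74 ± 0.11, limma adjusted p = 0.0464). The 4 other probe sets of Jam2 measured -3.73 to -1.80, but the other probe set of Jam3 measured -0.06 ± 0.11, so its increase rests on 1 probe set. Whether F11r differed from either was not tested.

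Of 5 measured partners and relatives of Epcam, Cldn7, a claudin that binds Epcam, rose from 7.28 and 8.38 to 11.09 and 11.53 (limma adjusted p = 0.0325) and 4 did not pass. St14, the membrane protease matriptase that can cleave Epcam, measured 0.76 ± 0.23 (adjusted p = 0.154).

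**Figure D4:**
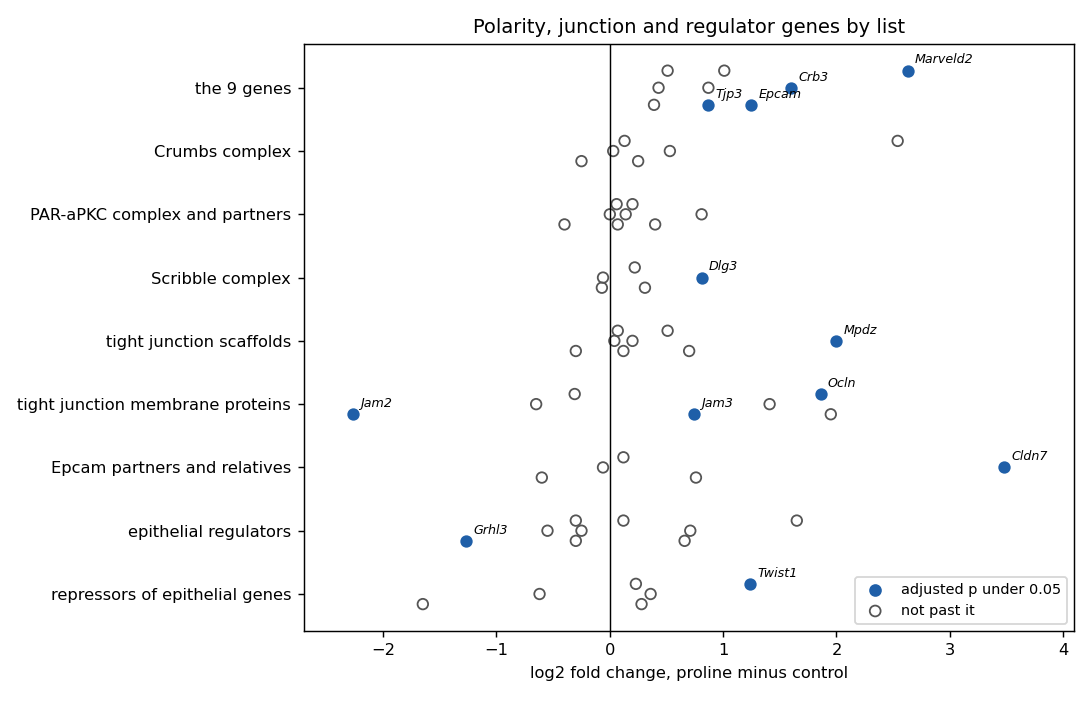
Log2 fold change of proline minus control (x axis) for the 9 genes and for the genes of 6 polarity and junction lists and 2 lists of regulators (y axis), filled where adjusted p was under 0.05 in limma. Filled points lie on both sides of 0, with Jam2 at -2.27 and Cldn7 at 3.48.

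Regulators of epithelial genes did not move as one. Of 9 transcription and splicing factors of epithelium, 8 did not pass. The other, Grhl3, a Grainyhead-like factor, fell from 8.28 and 8.46 to 6.99 and 7.22 (-1.27 ± 0.15, limma adjusted p = 0.0319). Ovol2, which represses mesenchymal genes, measured 0.66 ± 0.12 (adjusted p = 0.0582). Of 6 repressors, Twist1 rose from 4.85 and 4.89, both under the 40th percentile, to 6.22 and 6.01 (limma adjusted p = 0.0289). Zeb1, which binds the E-box shown above, had 8.51 and 7.70 in controls and 6.34 and 6.57 after proline, and did not pass (-1.65 ± 0.30, adjusted p = 0.0605). Its 3 other probe sets measured -1.95, -0.22 and -0.04. The rest of the 6 repressors did not pass and went both ways. Zeb2 measured 0.23 ± 0.12, Snai1 0.36 ± 0.32, Tcf3 0.28 ± 0.12 and Snai2 -0.62 ± 0.23. Whether any of these factors acts on the 9 genes was not tested.

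Markers of the labelled cell type were bright in both groups, and Pou5f1, which encodes Oct4, read between 12.87 and 13.56 in the 4 replicates. Of 8 stem cell markers, the naive-state genes Esrrb (-1.49 ± 0.13) and Zfp42 (-1.39 ± 0.14) fell and 6 did not pass. In limma 5 of the 8 had an unadjusted p under 0.05, against 22.1% of all genes. Of these 8 markers 1 measured above 0, with a median log2 fold change of -0.41. Their summed signal was 15.55 to 15.56 in controls and 15.05 to 15.20 after proline. Of 8 fibroblast markers 0 passed in limma, although 1 had an unadjusted p under 0.05 and 4 were under the 40th percentile in all replicates. Dcn measured 0.77 ± 0.16 and Col3a1 0.47 ± 0.27. The summed signal of the 8 was 9.01 to 9.49 in controls and 9.02 to 9.53 after proline on the log2 scale. Of 8 primitive endoderm markers 0 passed, with 1 at an unadjusted p under 0.05 (Dab2, 1.68 ± 0.28), and their summed signal was 8.62 to 8.89 in controls and 9.42 to 9.70 after proline. Dab2, the brightest of them (7.09 in controls and 8.77 after proline on average), weighs most in this sum. The higher sum thus does not show a rise of the 8 as a group, whose median log2 fold change was 0.12. The other probe sets of Dab2 measured 0.91, 0.88 and 0.42. Gata4 read between 5.13 and 5.51 and Sox17 between 5.16 and 5.38, while Sox7 and Afp were under the 40th percentile in all. Of 8 trophoblast markers Eomes rose (2.51 ± 0.15), which primitive streak cells also express, and 7 did not pass, among them Tfap2c (-0.69 ± 0.14). Of the 8, 3 had an unadjusted p under 0.05 in limma, against 22.1% of all genes. Among the trophoblast markers 6 measured above 0, with a median log2 fold change of 0.35. Their summed signals were 10.53 to 10.77 in controls and 10.59 to 10.90 after proline. Tfap2c, the brightest (10.29 in controls and 9.60 after proline on average), weighs most in that sum, so it can hide increases of dimmer genes. Whether such cells add to the signals of the 9 genes was not tested, and in whole cultures more cells of a type and more RNA per cell cannot be told apart.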

How the data were processed

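Per the labels' protocols, total RNA was labelled with biotin and hybridized to Affymetrix arrays. The values deposited by the authors are normalized log2 signals, for 45101 probe sets on 12 arrays. The submitters' processing notes name MAS5 and RMA, without versions or roles. Values ran from 2.10 to 14.79 with array medians of 5.99 to 6.03. Detection calls and the genome build are not given in the sources used here.

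Names come from the platform annotation, with symbols checked by gene ID against RefSeq genes of GRCm38.p6 (0 changed). A single symbol was given for 34945 probe sets and several for 932, which stayed unnamed, and the rest are unnamed here or array controls. A gene with several probe sets was read from the one of highest mean signal, which matters for 9010 genes. The 3 arrays of a biological replicate were averaged, and limma 3.58.1 (R 4.3.3, two-sided lmFit with eBayes, 2 residual and 2.60 prior degrees of freedom) compared 2 proline with 2 control means over all 18193 genes, with Benjamini-Hochberg adjustment and a threshold of 0.05. With 2 against 2, an exact permutation test cannot reach that threshold. The number of biological replicates, 2 per group, limits the precision. Arrays of one replicate correlated at r = 0.996 to 0.998, those of 2 replicates of a group at 0.985 to 0.989, and those of 2 groups at 0.962 to 0.981.

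The genes and lists were chosen with earlier results of these data known, so a pattern those results showed is no independent support. Named were all 9 genes and, of each list, the genes past the threshold and the 2 with the smallest p. Marveld3, Pou5f1, Sox17, Sox7, Afp, Zeb2, Snai1, Snai2 and Tcf3 were named outside this rule, after their values were seen. Structural genes and regulators were totalled apart, also after their values were seen. Tried instead were median centring, quantile normalization, a filter on dim genes (under the 40th percentile), each gene's median over probe sets, single probe sets, a random block over the 12 arrays, a replicate block, an intensity trend and leaving out each replicate. List entries without a value were not analysed here. Promoter sequences are RefSeq's, build GRCm38.p6, with 1 or more windows for each of the 9 genes. Plots were drawn with matplotlib 3.10.9.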

Additional observations from a re-analysis of the deposited data

How the results depend on the processing

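The log2 fold changes of all 9 genes were above 0 under the 12 alternatives, but most of these could not change the sign. The dim gene filter, single probe sets, random block, replicate block and intensity trend gave the same estimate for each gene. Leaving out a replicate cannot turn it, since both proline means lay above both control means. Median centring could hardly turn it, with array medians of 5.99 to 6.03 and a smallest log2 fold change of 0.39 among the 9. The median over probe sets could not turn it for Marveld2, Tjp1 and Tjp3, which have 1 probe set each. That leaves quantile normalization and, for the other 6 genes, the median over probe sets. In place of 794 genes past the threshold, separate fits over all genes gave 354 with the median over probe sets, 3987 with a random block over the 12 arrays and 2039 with the replicate block, and a fit of every probe set by itself gave 45 probe sets. Of the 9 genes, 4 passed, against 2 with the median over probe sets and 1 with every probe set by itself. With the random block 7 passed, and with the replicate block 6, where Pard6b and Cgn joined the 4. The random block takes the 12 arrays as observations, with 1 correlation of 0.548 within replicates for all genes. For Cgn, whose replicates differed by 0.80 and 0.87, it gave a standard error of 0.25 in place of 0.40. Its larger counts are thus not firmer calls. Of the genes on the 8 lists of polarity, junction and regulator genes, 8 passed, against 2 with every probe set by itself, 25 with the random block and 16 with the replicate block. Replicate numbers are shared between groups but nothing in the labels pairs them, and the difference of replicate 2 minus 1 correlated between groups at r = 0.338 across genes, which are not independent. Without any 1 replicate, limma left 0 of all genes, 0 of the 9 and 0 on the lists past the threshold, with 2766 to 3676, 6 to 7 and 16 to 23 at an unadjusted p under 0.05. The fits then have fewer samples and assume that the lone sample varies like the other group. In the same settings, 2 probe sets changed sign: 1436374_x_at of F11r ran from -0.07 to 0.08 and 1420391_at of Pard3 from -0.02 to 0.56. Signals near the background, as for Marveld2 in control replicate 1, limit how exact a fold is.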
